A study of Homo sapiens with 4 samples.

Results

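Transcript levels in ES2 cells treated with YY-15 were compared with those in untreated ES2 cells, with 1 library a side. Of the 38558 genes in the deposited table, 12341 passed a filter of 1 FPKM, a read density that allows for transcript length and library size, in the ES2 YY-15 library, the ES2 control library or both. Genes with a hyphenated read-through name and genes overlapping another gene past the same filter on the same strand were set aside, 1173 in all, because their reads cannot be assigned with certainty. This left 11168 genes, of which 9814 had a protein-coding transcript. No ratio entered this choice, though a gene could pass the filter through 1 library alone. The filter sat among many genes, with 135 measured genes reaching no more than 5% above it and 154 genes lying no more than 5% below it.

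ES2 is an established human ovarian cancer cell line, and YY-15 is a compound that the labels give only by this code name. The ES2 YY-15 cells were exposed for 48 h at 4 µM, a dose that appears in the column headings alone, and the ES2 control cells received no drug. The labels mention no vehicle for the control, call the cells epithelial and WT, and name different sequencers in different fields. They do not say whether a library came from 1 culture or from several, and the second line, SKOV3, was treated and sequenced in the same way with 1 library a side.

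Dividing cells separate their chromosomes on a spindle of microtubules, which are polymers of tubulin. Centrosomes anchor the ends of the spindle, kinesin motors move along its microtubules, and kinetochores tie the chromosomes to it. Cohesin and condensin are ring-shaped complexes that hold sister chromosomes together and compact them.

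Estimated counts summed to 66684550 in the ES2 YY-15 library and 63900880 in ES2 control. Mitochondrially encoded genes held 6.08% of these counts in ES2 YY-15 and 5.84% in ES2 control. Of 18 epithelial markers, 4 passed the filter, namely KRT7, KRT8, KRT18 and CLDN1, with a summed level of 233 FPKM in ES2 YY-15 and 227 FPKM in ES2 control. The defining epithelial genes EPCAM and CDH1 were under the filter, so these markers go only partly with the epithelial label. Mesenchymal markers passed in 13 of 16 cases, led by the intermediate filament gene VIM at 1197 FPKM in ES2 YY-15 and 1208 FPKM in ES2 control. Of 15 ovarian and clear cell carcinoma markers 3 passed, and PAX8 and WT1 were among those that did not. Of 12 leukocyte markers, CD68, a lysosomal protein gene of macrophages that other cells also express, reached 1 FPKM and was set aside for its overlap with another gene. It was at 39.9 FPKM in ES2 YY-15 and 29.1 FPKM in ES2 control, while PTPRC, which defines leukocytes as CD45, was at 0 FPKM in ES2 YY-15 and 0.00334 FPKM in ES2 control. Endothelial markers passed in 2 of 9 cases and fibroblast markers in 4 of 10. In RNA from whole cultures, fewer cells of a type and less RNA per cell cannot be told apart.

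Few genes differed by a large factor between the ES2 libraries, and of the protein-coding genes past 1.5-fold most were lower with YY-15. The size of a difference is given as log2((YY-15 FPKM + 1)/(control FPKM + 1)), a scale that understates differences of genes with low FPKM. On it, 16 of the 11168 genes (0.143%) were higher in ES2 YY-15 by 2-fold or more and 17 (0.152%) were lower by as much. At 1.5-fold, 67 (0.6%) were higher and 163 (1.46%) lower. The split at 2-fold was 41 higher and 83 lower on the TPM scale, and 16 higher and 41 lower on scaled counts. The pseudocount stayed at 1 there, and it weighs less on the TPM scale, where values are larger. On the FPKM scale a pseudocount of 0.1 gave 55 higher and 100 lower, so scale and pseudocount are not separated here. Among the 9814 protein-coding genes, 1 (0.0102%) was higher by 2-fold or more and 3 (0.0306%) were lower, against 16 (0.163%) and 68 (0.693%) at 1.5-fold. Most protein-coding genes, 91.4%, lay within 1.25-fold of the control, and their log2 ratios had an SD of 0.19 across genes. With 1 library a group there is no replicate check, and no test or p-value can be given for any difference.

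The lowest protein-coding genes included motors and scaffolds of cell division. ZNF395, a zinc finger transcription factor gene (chromosome 8, 28345590 to 28402701, GRCh38), was at 2.26 FPKM in ES2 YY-15 and 6.38 FPKM in ES2 control. Its log2 ratio of -1.18 was the lowest of the 9814, and its interval was [-1.61 to -1.39]. Brackets hold the exact 95% interval for the log2 of YY-15 over control shares of estimated counts, with no pseudocount added. They cover counting error only, and can lie beyond the ratio of a gene with low FPKM. CENPE, which encodes a kinesin that carries chromosomes to the spindle equator (chromosome 4, 103105349 to 103198445), was at 3.36 FPKM in ES2 YY-15 and 8.19 FPKM in ES2 control, a log2 ratio of -1.08 [-1.35 to -1.21]. FAM111B, encoding a protease-like protein, was at 2.397 FPKM in ES2 YY-15 and 5.87 FPKM in ES2 control, a log2 ratio of -1.02 [-1.42 to -1.16]. KIF20B, the gene of a kinesin needed to complete cytokinesis (chromosome 10, 89701590 to 89774939), lay just inside 2-fold at 9.35 FPKM in ES2 YY-15 and 19.6 FPKM in ES2 control, a log2 ratio of -0.997 [-1.12 to -1.02]. The interval of each of these 4 genes lay wholly below 0.

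Behind these followed genes of RNA handling, chromosome attachment and transcription control. ESF1, a nucleolar factor of ribosome production, was at 9.92 FPKM in ES2 YY-15 and 19.9 FPKM in ES2 control (-0.93). TPR, the gene of a large coiled-coil protein on the inner face of the nuclear pore, was at 11.2 FPKM in ES2 YY-15 and 22.2 FPKM in ES2 control (-0.93). ZEB1, a transcriptional repressor that drives the mesenchymal state, was at 4.77 FPKM in ES2 YY-15 and 9.697 FPKM in ES2 control (-0.89). ZEB1 overlaps ZEB1-AS1 on the opposite strand, and since the counting is not stated to use strand its value is uncertain to that extent. NSRP1, a splicing regulator, had 3.41 FPKM in ES2 YY-15 and 7.16 FPKM in ES2 control (-0.89), and PNN, encoding the splicing-associated protein pinin, had 26.5 FPKM in ES2 YY-15 and 48.2 FPKM in ES2 control (-0.84). CENPF, the gene of a large kinetochore protein, was at 14.9 FPKM in ES2 YY-15 and 27.8 FPKM in ES2 control (-0.86), and KIF14, a cytokinesis kinesin gene, at 5.57 FPKM in ES2 YY-15 and 10.5 FPKM in ES2 control (-0.81). GOLGA8A, of the golgin family, was at 9.46 FPKM in ES2 YY-15 and 17.8 FPKM in ES2 control (-0.84). Its near-identical copy GOLGA8B, named after its values were seen, had a ratio of -0.77, and reads may be split between the copies. All 12 of the lowest genes reaching 5 FPKM had levels between 2.26 and 26.5 FPKM in ES2 YY-15, and between 5.87 and 48.2 FPKM in ES2 control.

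**Figure D1:**
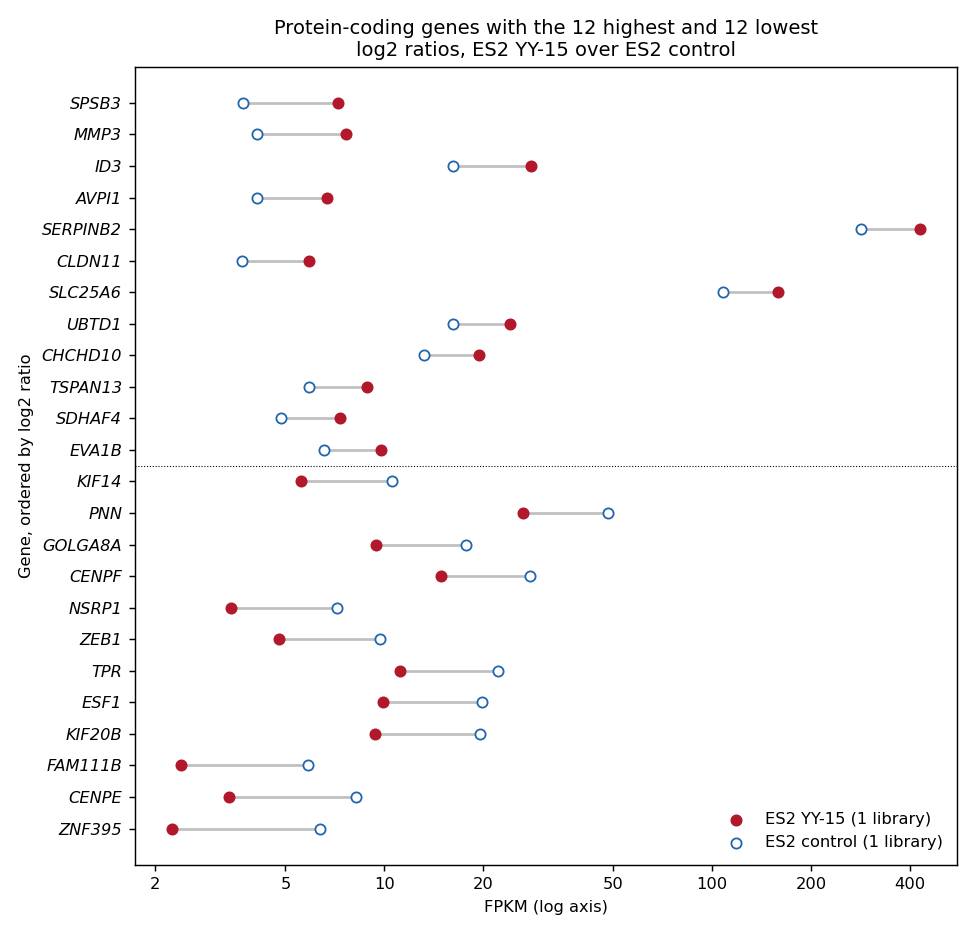
FPKM (log axis) of the protein-coding genes with the 12 highest (upper) and 12 lowest (lower) log2 ratios among those reaching an FPKM of 5, filled points for ES2 YY-15 and open points for ES2 control, 1 library each. SERPINB2 stands at the highest level, 430.3 FPKM in ES2 YY-15 against 285 FPKM in ES2 control, and the low genes spread over 2.26 to 48.2 FPKM.

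The transcripts at the low and high ends of the ranking differed in base composition, with overlap. Among genes reaching 5 FPKM the GC content of the transcript lay between 34.2% and 53.5% for the 12 lowest, and between 40.97% and 68.4% for the 12 highest. The middle 120 coding bases of 7 genes are shown for this composition, with G and C in capitals. The sequences are 5′ to 3′ from GENCODE 29 transcripts (GRCh38), the first group from genes lower in ES2 YY-15 and the second from genes higher there. They were picked from the lowest and highest ranks with their composition known, and SERPINB2 is included as a higher gene of low GC content.
CENPE: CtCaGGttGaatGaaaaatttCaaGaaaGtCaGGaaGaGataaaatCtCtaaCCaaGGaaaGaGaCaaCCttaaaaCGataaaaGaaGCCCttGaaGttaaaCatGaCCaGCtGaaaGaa
KIF20B: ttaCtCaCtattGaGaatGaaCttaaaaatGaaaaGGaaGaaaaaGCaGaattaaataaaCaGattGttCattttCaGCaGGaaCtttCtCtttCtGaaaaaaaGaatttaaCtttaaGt
TPR: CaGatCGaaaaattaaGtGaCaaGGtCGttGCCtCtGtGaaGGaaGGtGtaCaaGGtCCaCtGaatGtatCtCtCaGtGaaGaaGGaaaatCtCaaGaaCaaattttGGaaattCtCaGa
ID3: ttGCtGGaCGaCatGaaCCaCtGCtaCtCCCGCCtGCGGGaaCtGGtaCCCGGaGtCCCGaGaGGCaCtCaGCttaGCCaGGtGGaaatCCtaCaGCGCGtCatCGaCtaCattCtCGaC
SPSB3: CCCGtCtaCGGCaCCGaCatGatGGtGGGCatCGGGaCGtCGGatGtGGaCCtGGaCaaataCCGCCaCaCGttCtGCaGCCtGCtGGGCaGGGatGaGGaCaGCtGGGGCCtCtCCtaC
MMP3: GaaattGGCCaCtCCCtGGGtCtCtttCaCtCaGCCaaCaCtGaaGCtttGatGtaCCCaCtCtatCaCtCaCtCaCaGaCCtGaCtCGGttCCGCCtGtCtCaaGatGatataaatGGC
SERPINB2: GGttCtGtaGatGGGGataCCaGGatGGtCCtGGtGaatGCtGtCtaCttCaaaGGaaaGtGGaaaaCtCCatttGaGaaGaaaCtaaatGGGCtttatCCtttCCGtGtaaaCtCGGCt
G and C made up 42, 31 and 47 of the 120 bases in CENPE, KIF20B and TPR, and 70, 76, 59 and 53 in ID3, SPSB3, MMP3 and SERPINB2. Over the whole transcript the GC content was 35.3% for CENPE, 34.2% for KIF20B and 40.1% for TPR. It was 57.2% for ID3, 63.8% for SPSB3, 44.8% for MMP3 and 40.97% for SERPINB2, the last pair below the median of 48.1% over 9795 protein-coding genes with a GENCODE transcript.

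A relation with base composition ran through the whole transcriptome of the ES2 pair. Across the 9795 genes the log2 ratio went with GC content (Spearman rho 0.512) and against transcript length (rho -0.354), while GC content and length themselves were related at rho -0.328. These are descriptions across genes, which share the same pair of libraries. In 10 equal bins, the bin poorest in GC had a median log2 ratio of -0.21 with 90.2% of genes below 0, and the bin richest in GC a median of 0.09 with 27.8% below 0. The bin of shortest transcripts had a median of 0.10 and that of longest -0.11. In the SKOV3 pair the corresponding rho values were 0.00208 for GC content and 0.088 for length. The ES2 ratio also rose with level, taken as the higher FPKM of the ES2 pair. Protein-coding genes had a median of -0.06 at 1 to 5 FPKM and -0.01 at 5 to 20 FPKM. The median was 0.06 at 20 to 100 FPKM and 0.12 over 100 FPKM. The trend removal below did not include level.

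Long and GC-poor transcripts made up most of the lower genes. Of the 68 protein-coding genes at least 1.5-fold lower, 58 (85.3%) had a GC content under 42%, against 25.4% of all, and 42 (61.8%) were longer than 5000 bases, against 27.3% of all. The third of genes lowest in GC crossed with the third longest held 45 of the 68, and 1540 of all 9795 genes. Of the 16 genes at least 1.5-fold higher, none exceeded 5000 bases and 1 was under 42% GC. ZNF395 stood apart from the other lowest genes with a GC content of 53.5%. Its ratio was -1.22 when the trend on GC content and length was removed by local regression, whereas CENPE came to -0.84, KIF20B to -0.76 and TPR to -0.77. Over protein-coding genes, trend removal left 9 (0.0919%) at least 1.5-fold higher and 34 (0.347%) lower. What gave rise to the trend was not tested. The list medians below are each given with the median after trend removal.

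**Figure D2:**
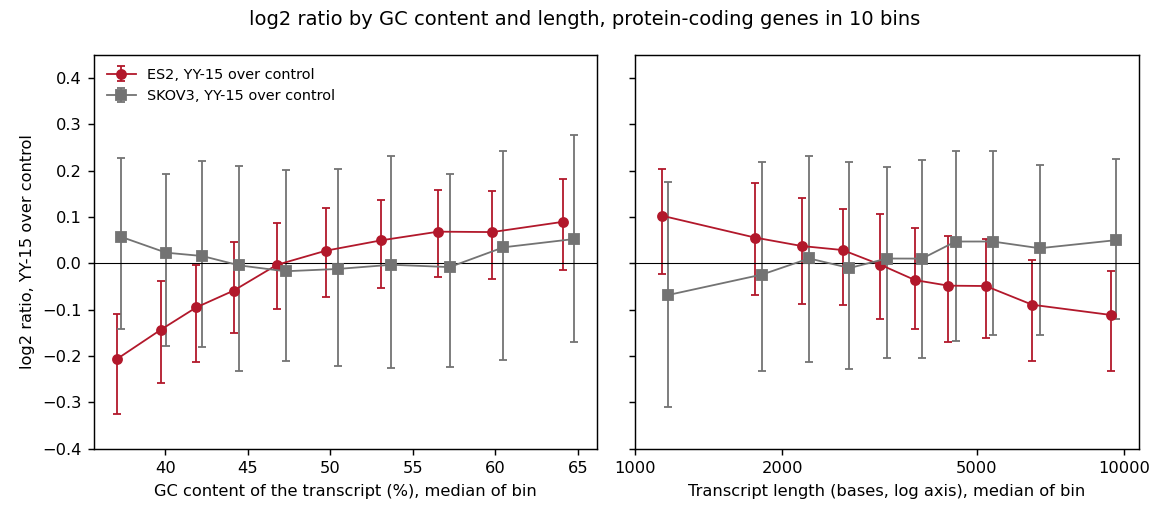
Median log2 ratio, YY-15 over control, of protein-coding genes in 10 equal bins of transcript GC content (left) and transcript length (right, log axis), circles for ES2 and squares for SKOV3, drawn slightly to the right, with bars from the 25th to the 75th percentile of genes. ES2 medians climb from -0.21 to 0.09 along GC content and descend from 0.10 to -0.11 along length.

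The listed genes of the spindle poles were lower throughout in the treated library. This list, like the others here, was drawn up with earlier results of these data known. Its count therefore does not speak for all spindle pole genes. All 20 measured members of the centrosome and spindle pole list were below 0, with a median log2 ratio of -0.34, where the median of all genes was -0.02 and 54.1% were below 0. After trend removal, which put 55.1% of all genes below 0 and 44.9% above, all 20 were still below 0 and the median was -0.24. ASPM, which organizes microtubule minus ends at the spindle pole, was at 11.1 FPKM in ES2 YY-15 and 19.8 FPKM in ES2 control, a log2 ratio of -0.79 [-0.88 to -0.80]. CEP152, a scaffold of centriole duplication, was at 3.14 FPKM in ES2 YY-15 and 5.59 FPKM in ES2 control (-0.67 [-0.91 to -0.75]). CCDC14, a centriolar satellite gene, was at 9.23 FPKM in ES2 YY-15 and 14.6 FPKM in ES2 control (-0.61). AKAP9, a large anchoring protein of the Golgi and centrosome, was at 0.889 FPKM in ES2 YY-15 and 2.02 FPKM in ES2 control (-0.68) and overlaps CYP51A1 on the opposite strand. These were the 4 members at least 1.5-fold lower. Over all 34 measured genes with a CEP symbol, a grouping made after values were seen, 26 were below 0 and 8 above. Their median was -0.23, and -0.10 after trend removal, with 23 below 0 and 11 above.

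The kinesin list was divided. Of 24 members 16 were below 0 and 8 above, with a median of -0.19 (-0.15 after trend removal). The 4 members at least 1.5-fold lower were CENPE, KIF20B, KIF14 and KIF18A, the last encoding a motor that dampens chromosome movements, at 9.79 FPKM in ES2 YY-15 and 16.3 FPKM in ES2 control (-0.68 [-0.80 to -0.67]). The highest member, KIF1C, a transport motor named after its values were seen, had a log2 ratio of 0.34. Over all 28 measured genes with a KIF symbol, grouped after values were seen, 16 were below 0 and 12 above. Their median was -0.07 (-0.04 after trend removal). Kinetochore and spindle checkpoint genes had a median of -0.18 (-0.13 after trend removal), with 18 of 23 below 0. Besides CENPF, KNL1, the kinetochore platform that recruits checkpoint proteins, was past 1.5-fold at 2.32 FPKM in ES2 YY-15 and 4.13 FPKM in ES2 control (-0.63). NUF2, a subunit of the microtubule-binding NDC80 complex, was at 20.99 FPKM in ES2 YY-15 and 31.2 FPKM in ES2 control (-0.55), and the checkpoint kinase gene TTK at 18.96 FPKM in ES2 YY-15 and 24.6 FPKM in ES2 control (-0.36).

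Kinases and cyclins that time mitosis did not share this direction. Of 19 members 13 were above 0, the median was 0.08 (0.03 after trend removal), and none passed 1.5-fold. CDC20, an activator of the anaphase-promoting complex, was at 161 FPKM in ES2 YY-15 and 134 FPKM in ES2 control (0.26), and the mitotic kinase gene PLK1 at 41.4 FPKM in ES2 YY-15 and 36.7 FPKM in ES2 control (0.17). CDK1, the kinase that starts mitosis, was at 46.3 FPKM in ES2 YY-15 and 55.4 FPKM in ES2 control (-0.25), and MYBL2, a transcription factor of late cell cycle genes, at 17.6 FPKM in ES2 YY-15 and 20.5 FPKM in ES2 control (-0.21). The transcripts on this list had a median GC content of 46.6% and a median length of 2248 bases, against 41.3% and 7502 bases on the centrosome list.

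Tubulin genes lay on the other side. Of 10 measured members 9 were above 0, the median log2 ratio was 0.24 and none passed 1.5-fold. After trend removal the median was 0.16, with 9 of 10 still above 0. TUBB4B, a widely expressed beta tubulin, was at 314 FPKM in ES2 YY-15 and 258 FPKM in ES2 control (0.29 [0.27 to 0.31]). The alpha tubulin gene TUBA1A was at 43.6 FPKM in ES2 YY-15 and 34.5 FPKM in ES2 control (0.33), and TUBG1, the gamma tubulin that nucleates microtubules, at 24.5 FPKM in ES2 YY-15 and 19.8 FPKM in ES2 control (0.29). Tubulin genes are similar to one another, and TUBA1A and TUBG1 overlap genes on the opposite strand, so their single values are uncertain. TBCA, a chaperone that binds beta tubulin, was among the 8 highest genes after trend removal, with 22.7 FPKM in ES2 YY-15 and 17.98 FPKM in ES2 control, a log2 ratio of 0.32 as deposited and 0.52 after trend removal. The tubulin folding and autoregulation list, TBCA included, had a median of 0.05 (0.02 after trend removal), with 8 of 11 members above 0 and 3 below. TBCC, a cofactor of the same folding pathway, was at 10.1 FPKM in ES2 YY-15 and 11.6 FPKM in ES2 control (-0.19).

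Chromosome structure and repair genes were mostly lower by less than 1.5-fold. Cohesin and condensin genes had a median log2 ratio of -0.29 (-0.14 after trend removal) and 18 of 22 were below 0. SMC3, a core cohesin ATPase, was the 1 member past 1.5-fold, at 8.12 FPKM in ES2 YY-15 and 13.9 FPKM in ES2 control (-0.70 [-0.81 to -0.73]). SMC4 of condensin stood at 37.1 FPKM in ES2 YY-15 and 55.8 FPKM in ES2 control (-0.58) and SMC5 of the SMC5/6 repair complex at 5.08 FPKM in ES2 YY-15 and 8.07 FPKM in ES2 control (-0.58). SMC6, its partner, was at 4.75 FPKM in ES2 YY-15 and 7.57 FPKM in ES2 control (-0.58), and both SMC4 and SMC6 overlap genes on the opposite strand. In the list of homologous recombination and mismatch repair the median was -0.25 (-0.17 after trend removal), with 19 of 21 below 0. BRCA2, which loads the recombinase onto single-stranded DNA, was at 1.197 FPKM in ES2 YY-15 and 2.42 FPKM in ES2 control (-0.64), and RAD50, a break-binding ATPase, at 4.97 FPKM in ES2 YY-15 and 7.61 FPKM in ES2 control (-0.53). The helicase gene BLM was at 3.31 FPKM in ES2 YY-15 and 4.51 FPKM in ES2 control (-0.35). Replication genes had a median of -0.08, with 16 of 25 below 0. After trend removal the median was -0.06 and 22 of 25 were below 0, against 55.1% of all genes. FAM111B, a gene expressed in S phase, was the 1 member past 1.5-fold. It was placed on this list with earlier results of these data known. MCM6, a helicase subunit, was at 19.6 FPKM in ES2 YY-15 and 22.6 FPKM in ES2 control (-0.19).

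Chromatin and zinc finger genes showed the same lean. The C2H2 zinc finger list, from a class of DNA-binding proteins, was drawn up with earlier results of these data known. Its count therefore does not speak for the class. All 22 of its measured members were below 0 with a median of -0.31. After trend removal 17 were below 0, the median was -0.13, and the median GC content of these transcripts was 37.5%. ZNF638 was at 4.44 FPKM in ES2 YY-15 and 7.62 FPKM in ES2 control (-0.66), ZNF107 at 0.748 FPKM in ES2 YY-15 and 1.92 FPKM in ES2 control (-0.74) and ZNF644 at 5.34 FPKM in ES2 YY-15 and 8.25 FPKM in ES2 control (-0.55). Over all 255 measured genes with a ZNF symbol, a grouping made after values were seen, 171 were below 0 and the median was -0.08. After trend removal the median of these 255 was -0.06, with 173 below 0 and 82 above. Chromatin remodellers and helicases had a median of -0.17 (-0.10 after trend removal) and 18 of 20 were below 0. ATRX, a remodeller of heterochromatin and telomeres, was the 1 member past 1.5-fold, at 2.39 FPKM in ES2 YY-15 and 4.58 FPKM in ES2 control (-0.72). SMARCAD1, CHD9 and ARID4A lay between -0.57 and -0.52. Histone methyltransferases and demethylases had a median of -0.07 (-0.05 after trend removal), with EZH2, the catalytic subunit of the Polycomb repressive complex, at 6.59 FPKM in ES2 YY-15 and 8.22 FPKM in ES2 control (-0.28).

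RNA processing genes were lower too, again by small factors. SR proteins and hnRNPs, which bind pre-mRNA and steer splicing, had a median log2 ratio of -0.18 (-0.11 after trend removal), and 19 of 25 were below 0. None passed 1.5-fold. HNRNPH1 was at 22.1 FPKM in ES2 YY-15 and 30.99 FPKM in ES2 control (-0.47), and its ratio after trend removal was -0.52. SRSF10 was at 8.94 FPKM in ES2 YY-15 and 12.4 FPKM in ES2 control (-0.43) and SRSF11 at 21.4 FPKM in ES2 YY-15 and 29.1 FPKM in ES2 control (-0.43). Among splicing-linked and nuclear-retained RNAs, with a median of -0.11 (-0.13 after trend removal) over 16 members, 2 were at least 1.5-fold lower. These were MALAT1, a long non-coding RNA of nuclear speckles, at 3.85 FPKM in ES2 YY-15 and 6.35 FPKM in ES2 control (-0.60), and LUC7L3, a splicing factor gene, at 20.4 FPKM in ES2 YY-15 and 31.2 FPKM in ES2 control (-0.59). NEAT1, the RNA scaffold of paraspeckles, was at 5.32 FPKM in ES2 YY-15 and 7.97 FPKM in ES2 control (-0.50). CLK1, a kinase of SR proteins, was at 8.38 FPKM in ES2 YY-15 and 10.98 FPKM in ES2 control (-0.35).

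Translation factors lay on both sides of 0. EIF5B, the factor that joins the ribosomal subunits, was past 1.5-fold at 16.4 FPKM in ES2 YY-15 and 26.3 FPKM in ES2 control (-0.65 [-0.72 to -0.64]), and it overlaps REV1 on the opposite strand. EIF3A, the largest initiation factor subunit, was at 59.5 FPKM in ES2 YY-15 and 75.8 FPKM in ES2 control (-0.35), and EIF6, which keeps large subunits apart from small ones, at 139.7 FPKM in ES2 YY-15 and 115 FPKM in ES2 control (0.28). The translation factor list as a whole had a median of 0.02 (0.03 after trend removal), with 14 of 24 above 0. In the list of the MYC network and ribosome biogenesis the median was -0.04 (-0.06 after trend removal), 14 of 19 were below 0 and none passed 1.5-fold. The nucleolar genes NOP58 (32.4 against 45.7 FPKM, -0.48) and NCL (99.4 against 122 FPKM, -0.30) were lower in ES2 YY-15 than in ES2 control, while the transcription factor gene MYC was at 50.7 FPKM in ES2 YY-15 and 44.8 FPKM in ES2 control (0.18).

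The genes with the highest ratios were fewer and mostly small in effect. BEST1, an anion channel gene, was the only protein-coding gene at least 2-fold higher, at 1.68 FPKM in ES2 YY-15 and 0.0386 FPKM in ES2 control. Its estimated counts were 1034 in ES2 YY-15 and 25 in ES2 control, and it passed the filter through ES2 YY-15 alone. It overlaps the ferritin heavy chain gene FTH1 on the opposite strand, which was at 200.3 FPKM in ES2 YY-15 and 181 FPKM in ES2 control and is named for this reason, so the level of BEST1 is uncertain. SPSB3, an adaptor of ubiquitin ligases, was at 7.24 FPKM in ES2 YY-15 and 3.72 FPKM in ES2 control (0.80 [0.83 to 1.08]). It overlaps EME2 on the opposite strand, which stood at 1.75 FPKM in ES2 YY-15 and 2.92 FPKM in ES2 control, so its value is uncertain as well. MMP3, the matrix-degrading protease stromelysin (chromosome 11, 102835801 to 102843609), was at 7.64 FPKM in ES2 YY-15 and 4.097 FPKM in ES2 control (0.76 [0.75 to 1.06]), and after trend removal 0.75. ID3, an inhibitor of helix-loop-helix transcription factors and a target of BMP signals (chromosome 1, 23557926 to 23559501), was at 27.99 FPKM in ES2 YY-15 and 16.2 FPKM in ES2 control (0.75 [0.70 to 0.87]). ID1, of the same family, was at 20.4 FPKM in ES2 YY-15 and 15.2 FPKM in ES2 control (0.41). The ID and TGF-beta/BMP list as a whole had a median of -0.05 over 26 measured members, with 16 below 0, and a median of 0.05 after trend removal.

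SERPINB2, the plasminogen activator inhibitor PAI-2 (chromosome 18, 63871692 to 63903879), combined a high level with a ratio past 1.5-fold. It was at 430.3 FPKM in ES2 YY-15 and 285 FPKM in ES2 control, a log2 ratio of 0.59 [0.58 to 0.61], and its ratio after trend removal was 0.66. AVPI1, a gene induced by vasopressin, was at 6.69 FPKM in ES2 YY-15 and 4.09 FPKM in ES2 control (0.59). Together with SPSB3, MMP3, ID3 and SERPINB2 it formed the 5 genes reaching 5 FPKM that were at least 1.5-fold higher, of 6092 (0.0821%), against 45 (0.739%) lower. SLC25A6, a mitochondrial ADP/ATP carrier, was just under that size at 159 FPKM in ES2 YY-15 and 108 FPKM in ES2 control (0.56). TXNIP, an inhibitor of thioredoxin that responds to glucose, was at 75.3 FPKM in ES2 YY-15 and 53.5 FPKM in ES2 control (0.49). CLDN11, a tight junction gene, was at 5.91 FPKM in ES2 YY-15 and 3.69 FPKM in ES2 control (0.56), and CHCHD10, of the mitochondrial intermembrane space, at 19.4 FPKM in ES2 YY-15 and 13.2 FPKM in ES2 control (0.53). UBTD1, TSPAN13, SDHAF4 and EVA1B had ratios between 0.51 and 0.55.

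Genes of mitochondrial energy production leaned to the higher side. Nuclear oxidative phosphorylation genes had a median log2 ratio of 0.19 (0.11 after trend removal), and none passed 1.5-fold. Of 25 members 22 were above 0, against 45.9% of all genes. After trend removal 19 of 25 were above 0, against 44.9% of all genes. Protein-coding genes of 20 to 100 FPKM had a median of 0.06. NDUFS5, a complex I subunit, was at 90.9 FPKM in ES2 YY-15 and 71.3 FPKM in ES2 control (0.35), CYC1 of complex III at 98.9 FPKM in ES2 YY-15 and 79.5 FPKM in ES2 control (0.31), and UQCR10 of the same complex at 35.9 FPKM in ES2 YY-15 and 28.98 FPKM in ES2 control (0.30). The transcripts of this list are short, with a median of 932 bases. In the bin of shortest transcripts 28.5% of protein-coding genes were below 0, so the share of all genes is an unlike background. Proteins encoded in the mitochondrial genome had a median of 0.02 (0.03 after trend removal), between MT-CYB at 1392 FPKM in ES2 YY-15 and 1624 FPKM in ES2 control (-0.22) and MT-CO1 at 10930.0 FPKM in ES2 YY-15 and 10046 FPKM in ES2 control (0.12). Among measured genes other than pseudogenes and small RNAs, MT-CO1 was the most abundant in ES2 YY-15. MT-ND4, MT-ND4L, MT-CO3, MT-ATP6 and MT-ATP8 had been set aside for overlap and were not ranked. Mitochondrial ribosomal proteins had a median of 0.09, which came to -0.004 after trend removal.

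Cytosolic ribosomal proteins were above 0 in 23 of 26 cases, with a median of 0.14 (0.07 after trend removal). Protein-coding genes over 100 FPKM had a median of 0.12. RPS2, of the small subunit, was at 1261 FPKM in ES2 YY-15 and 1045 FPKM in ES2 control (0.27). Proteasome subunits had a median of 0.09 (0.04 after trend removal) over 24 members, between PSMC6 at -0.36 and PSMB6 at 0.28. Autophagy and lysosome genes were above 0 in 20 of 24 cases with a median of 0.12 and 0.11 after trend removal. Their highest member was WIPI1, which acts on the forming autophagosome, at 12.3 FPKM in ES2 YY-15 and 9.399 FPKM in ES2 control (0.36), followed by the lysosomal cholesterol carrier NPC2 at 11.5 FPKM in ES2 YY-15 and 8.97 FPKM in ES2 control (0.33). The autophagy receptor SQSTM1, which overlaps other genes on the opposite strand, was at 25.4 FPKM in ES2 YY-15 and 20.1 FPKM in ES2 control (0.32). Antioxidant targets of NRF2 had a median of 0.15 (0.10 after trend removal), with FTL, the ferritin light chain, at 794 FPKM in ES2 YY-15 and 648 FPKM in ES2 control (0.29). GCLC, which makes the first step of glutathione synthesis, was at 3.66 FPKM in ES2 YY-15 and 4.57 FPKM in ES2 control (-0.26). In the iron and ferroptosis list, with a median of 0.09 (0.12 after trend removal), GPX4, the lipid peroxide reductase, was at 90.6 FPKM in ES2 YY-15 and 67.7 FPKM in ES2 control (0.41). The transferrin receptor gene TFRC was at 7.705 FPKM in ES2 YY-15 and 6.34 FPKM in ES2 control (0.25).

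**Figure D3:**
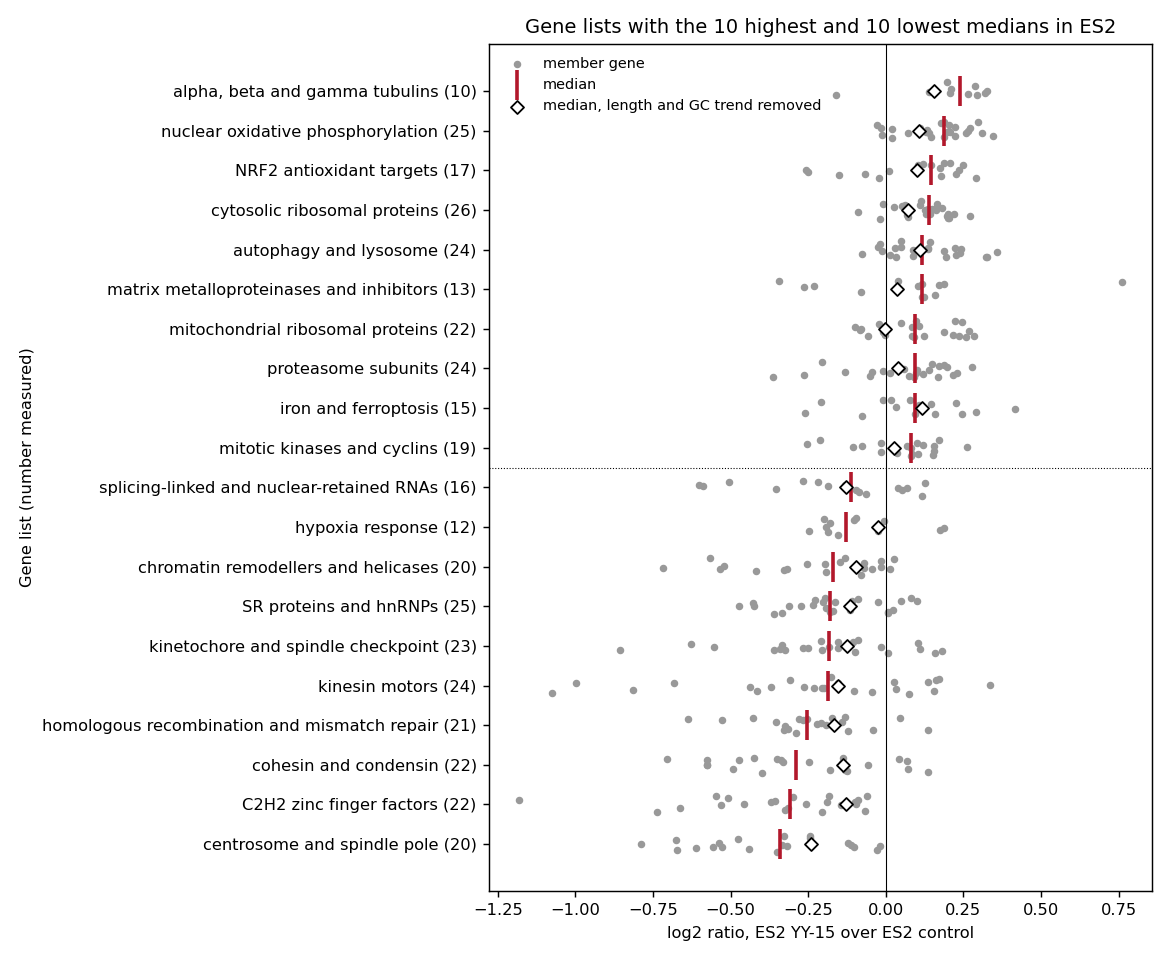
Log2 ratio, ES2 YY-15 over ES2 control, of the members (grey points) of the gene lists with the 10 highest and 10 lowest medians among lists with at least 5 measured genes, with the median (red bar) and the median after removal of the length and GC trend (diamond). The number measured follows each name, and points are spread vertically for sight only. The lists were drawn up with earlier results of these data known. All 20 measured genes of the centrosome list lie below 0, while 9 of 10 on the tubulin list lie above.

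Stress and signalling genes lay close to the middle in ES2. ATF4 targets of the integrated stress response had a median log2 ratio of 0.04 over 22 members, and -0.02 after trend removal, with DDIT4, an inhibitor of mTOR, at 5.65 FPKM in ES2 YY-15 and 6.52 FPKM in ES2 control (-0.18). ATF3, which marks this response, was under the filter in ES2. Unfolded protein response and endoplasmic reticulum folding genes had a median of 0.05 (0.06 after trend removal), with DNAJB9, a co-chaperone of that compartment, at 2.85 FPKM in ES2 YY-15 and 2.07 FPKM in ES2 control (0.32). Heat shock chaperones had a median of -0.07 (-0.02 after trend removal). The inducible cytosolic chaperone gene HSP90AA1, which overlaps WDR20 on the opposite strand, was at 308 FPKM in ES2 YY-15 and 389 FPKM in ES2 control (-0.34), and HSP90AB1, its constitutive relative, at 1152 FPKM in ES2 YY-15 and 1170.5 FPKM in ES2 control (-0.02). None of the members of these lists passed 1.5-fold.

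The NF-kB and cytokine list had a median of 0.04 (0.09 after trend removal) over 20 members. NFKBIE and NFKBIA, both inhibitors of NF-kB and its targets, stood at 6.93 FPKM in ES2 YY-15 and 5.204 FPKM in ES2 control (0.35) and at 7.90 FPKM in ES2 YY-15 and 6.04 FPKM in ES2 control (0.34). IL1A, IL6 and CCL20 were under the filter. ERK feedback genes had a median of -0.01 (-0.01 after trend removal), with SPRY4, an inhibitor of receptor signalling, at 11.98 FPKM in ES2 YY-15 and 14.01 FPKM in ES2 control (-0.21) and DUSP4, a kinase phosphatase, at 12.8 FPKM in ES2 YY-15 and 14.8 FPKM in ES2 control (-0.20). Immediate early genes had a median of 0.05 (-0.03 after trend removal), with DUSP1, a phosphatase of stress kinases, at 64.1 FPKM in ES2 YY-15 and 46.2 FPKM in ES2 control (0.46) and EGR1, a transcription factor, at 13.5 FPKM in ES2 YY-15 and 16.3 FPKM in ES2 control (-0.25). Interferon response genes had a median of 0.03 (-0.01 after trend removal), with the peptide transporter TAP1 at 8.55 FPKM in ES2 YY-15 and 6.16 FPKM in ES2 control (0.41).

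Genes of cell death and growth arrest showed no common direction. Targets of p53 had a median of -0.003 (-0.06 after trend removal) over 18 members, with MDM2, its ubiquitin ligase, at 4.07 FPKM in ES2 YY-15 and 5.22 FPKM in ES2 control (-0.29). BCL2 family, caspase and death receptor genes had a median of 0.01 (0.000 after trend removal). BID, which links death receptors to mitochondria, was at 7.92 FPKM in ES2 YY-15 and 5.75 FPKM in ES2 control (0.40), and PMAIP1, the BH3-only protein NOXA, at 18.6 FPKM in ES2 YY-15 and 22.3 FPKM in ES2 control (-0.25). BIRC5, the inhibitor of apoptosis survivin, was at 28.7 FPKM in ES2 YY-15 and 24.3 FPKM in ES2 control (0.23).

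Matrix and adhesion genes differed little. Metalloproteinases and their inhibitors had a median of 0.12 (0.04 after trend removal), and MMP3 was the 1 member past 1.5-fold. MMP1, the interstitial collagenase, was at 4584 FPKM in ES2 YY-15 and 4022 FPKM in ES2 control (0.19). It was among the 10 most abundant of the measured genes other than pseudogenes and small RNAs. ADAM10, a sheddase, was at 4.44 FPKM in ES2 YY-15 and 5.902 FPKM in ES2 control (-0.34). Extracellular matrix genes had a median of -0.07 (-0.10 after trend removal) with 16 of 21 below 0, and COL12A1, a fibril-associated collagen, at 8.71 FPKM in ES2 YY-15 and 11.2 FPKM in ES2 control (-0.33). Integrins had a median of -0.09 (-0.04 after trend removal) over 9 members. The mesenchymal markers had a median of 0.004 (0.03 after trend removal). ZEB1 was the 1 member past 1.5-fold, while TWIST1 and TWIST2, transcription factors of the same program, were at 14.7 FPKM in ES2 YY-15 and 12.2 FPKM in ES2 control (0.25) and at 13.4 FPKM in ES2 YY-15 and 11.01 FPKM in ES2 control (0.26). VIM, KRT7, KRT8, KRT18, TAP1, MDM2, ADAM10, SPRY4 and EVA1B each overlap a gene on the opposite strand, so their values are uncertain to that extent. The summed FPKM of the mesenchymal list was 1473 in ES2 YY-15 and 1488 in ES2 control.

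Metabolic and regulatory lists held no member past 1.5-fold. Parentheses here hold the median after trend removal. Glycolysis genes had a median log2 ratio of 0.06 (0.02), cholesterol and fatty acid synthesis genes 0.04 (0.01), hypoxia genes -0.13 (-0.02), and aminoacyl-tRNA synthetases 0.05 (0.001). The medians were 0.06 (-0.002) for actin and contractile genes, -0.03 (-0.05) for YAP/TEAD genes and 0.02 (0.02) for Notch and WNT genes. For receptor tyrosine kinases the median was -0.03 (-0.05), for ABC transporters -0.05 (-0.04), for circadian clock genes -0.09 (-0.09), for histones 0.07 (0.03) and for TRiC chaperonin subunits 0.03 (0.02). The median changed sign with trend removal for the actin and contractile list, and likewise for the interferon, integrated stress response, immediate early, ID and TGF-beta/BMP and mitochondrial ribosomal lists. GAPDH, of glycolysis, was at 1706 FPKM in ES2 YY-15 and 1516 FPKM in ES2 control, a log2 ratio of 0.17. VEGFA, the angiogenic factor of the hypoxia list, was at 3.28 FPKM in ES2 YY-15 and 3.91 FPKM in ES2 control, a log2 ratio of -0.20. EGFR, a receptor kinase, was at 17.4 FPKM in ES2 YY-15 and 19.8 FPKM in ES2 control, a log2 ratio of -0.18. The nuclear pore and transport list had a median of -0.07 (-0.02 after trend removal) over 23 members, of which TPR was the 1 past 1.5-fold.

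Genes without a protein-coding transcript, 1354 in all, held most of the large differences in ES2. By 2-fold or more, 15 (1.11%) were higher in ES2 YY-15 and 14 (1.03%) lower. Most in each direction passed the filter only through the library where they were higher, so their inclusion rested on 1 library. OCIAD1-AS1 had 0 FPKM in ES2 YY-15 and 1.70 FPKM in ES2 control, and ST13P19 had 1.15 FPKM in ES2 YY-15 and 0 FPKM in ES2 control. The most abundant of the higher ones were 4 entries of near-identical sequence on chromosome 21, which the deposited types call long non-coding. One of them, ENSG00000281181 (chromosome 21, 8437629 to 8438551), was at 177 FPKM in ES2 YY-15 and 73.0 FPKM in ES2 control, a log2 ratio of 1.27 [1.23 to 1.33], and at 61.6 FPKM in SKOV3 YY-15 and 89.9 FPKM in SKOV3 control, a ratio of -0.54. The ratios of the 4 lay between 1.27 and 1.29, and reads may be split among them. RN7SK, a small nuclear RNA that restrains transcription elongation, was at 2.62 FPKM in ES2 YY-15 and 0.424 FPKM in ES2 control, and RN7SL2, an RNA of the signal recognition particle, at 7.38 FPKM in ES2 YY-15 and 2.27 FPKM in ES2 control. The non-coding genes given here were named after their values were seen. Both of these small RNAs lack a poly(A) tail. RN7SL1, of the same particle as RN7SL2, differed less, at 4.33 FPKM in ES2 YY-15 and 2.95 FPKM in ES2 control (0.43). The mitochondrial ribosomal RNA MT-RNR1 was at 571 FPKM in ES2 YY-15 and 462 FPKM in ES2 control (0.30). MT-RNR2, the more abundant one, was at 4296 FPKM in ES2 YY-15 and 3894 FPKM in ES2 control (0.14). How far such RNAs escaped poly(A) selection in each library was not tested. Whether the 4 chromosome 21 entries carry a poly(A) tail was not tested either, so their ratios share this limit.

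The SKOV3 pair gave wider differences than the ES2 pair under the same rule. Log2 ratios of protein-coding genes had an SD of 0.19 in ES2 and 0.387 in SKOV3. Of 10458 protein-coding genes in SKOV3, 137 (1.31%) were higher and 83 (0.794%) lower by 2-fold or more, against 1 and 3 in ES2. At 1.5-fold the SKOV3 shares were 5.6% higher and 4.68% lower. With 1 library a group, the difference between the lines could not be tested. Of 9049 protein-coding genes measured in both lines, 63 were at least 1.5-fold lower in ES2 and 396 in SKOV3. On both lists were 6 genes (9.52% of the ES2 list and 1.52% of the SKOV3 list). Over all 10458 protein-coding genes in SKOV3, 4.68% were lower by as much. The 6 shared genes were ASPM, BRCC3, CENPF, FAM111B, KNL1 and ZNF107, named because they are shared. Taken over the 63 ES2 genes, the SKOV3 ratios had a median of -0.03. FAM111B, for one, had a ratio of -1.02 in ES2 and -1.91 in SKOV3, where it was at 1.11 FPKM in SKOV3 YY-15 and 6.94 FPKM in SKOV3 control.

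Of the 9049 genes, 12 were at least 1.5-fold higher in ES2 and 456 in SKOV3. The lines shared 3 (25% of the ES2 list and 0.658% of the SKOV3 list), so the first share rests on few genes. Over all 10458 protein-coding genes in SKOV3, 5.6% were higher by as much. The 3 shared genes were BEST1, CMTM8 and CD99, named because they are shared, the last a surface glycoprotein gene in the pseudoautosomal region. BEST1 is uncertain for its overlap with FTH1 on the opposite strand. Tubulin genes lay on opposite sides, with a list median of 0.24 in ES2 and -0.95 in SKOV3. So did nuclear oxidative phosphorylation genes, at 0.19 in ES2 and -0.31 in SKOV3, and proteasome subunits, at 0.09 in ES2 and -0.53 in SKOV3. The integrated stress response had a median of 0.04 in ES2 and 1.36 in SKOV3. SERPINB2 was near absent in SKOV3, at 0.0812 FPKM in SKOV3 YY-15 and 0 FPKM in SKOV3 control. TUBB4B, at a log2 ratio of 0.29 in ES2, was at -1.44 in SKOV3.

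**Figure D4:**
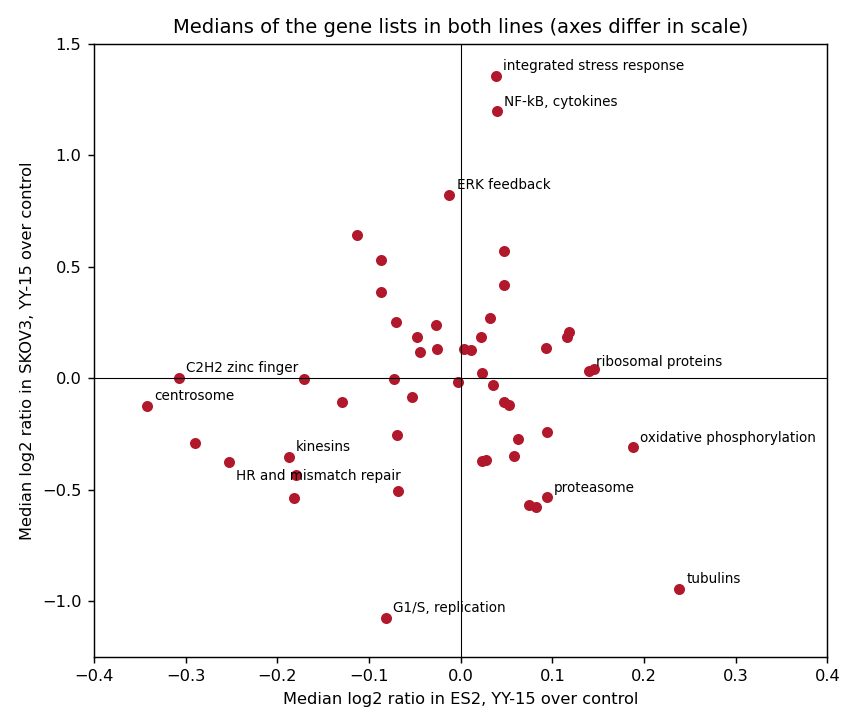
Median log2 ratio, YY-15 over control, of each gene list with at least 5 measured members in both lines, ES2 on the horizontal axis and SKOV3 on the vertical axis, which has a wider scale. ES2 medians span -0.34 to 0.24 and SKOV3 medians -1.08 to 1.36, with tubulins at 0.24 in ES2 and -0.95 in SKOV3.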

How the data were processed

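RNA of ES2 and SKOV3 cells, with and without YY-15, was sequenced in 4 libraries, 1 per group, after poly(A) selection, per the labels' protocols. Second-strand cDNA was marked and ends were read in pairs. The submitters' processing notes list StringTie 2.1.6, HISAT2 2.2.1, cutadapt 1.9, edgeR and DESeq2, with no role stated. These notes name the mouse build mm10, yet all identifiers are human. Of 38558, 35576 were found in GENCODE 29 (GRCh38) and 99.97% of those overlapped the same gene there, so GRCh38 is the build named here. The authors' deposited table holds, per the file headers, FPKM (fragments per kilobase, scaled to depth) and counts per gene. The deposited counts are treated as estimated counts, since 229 genes in ES2 YY-15 and 210 in ES2 control had a count of 1 beside an FPKM under 0.001. Use of strand in the counting is not stated in these sources.

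Ratios were log2((YY-15 FPKM + 1)/(control FPKM + 1)) over genes that reached 1 FPKM in ES2 YY-15 or in ES2 control. Sizes of 2-fold and 1.5-fold (0.58 on the log2 scale) were counted, and no test is possible with 1 library a group. Intervals are exact Clopper-Pearson 95% intervals of the counts' share, against totals of 66684550 in ES2 YY-15 and 63900880 in ES2 control. They cover counting error only, and PCR copies are not independent molecules. GENCODE 29 gave GC content and transcript length for 99.8% of protein-coding genes. Their trend was removed by local regression with a span of 0.3. The calculation was tested on simulated counts.

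Named genes were the 12 highest and 12 lowest protein-coding ratios at an FPKM of 5 or more, protein-coding genes past 2-fold, up to 4 per list by absolute ratio, the 8 highest and 8 lowest after trend removal, and the 10 most abundant. Y-linked genes, pseudogenes and small RNAs were outside this rule, and genes named beside it are marked as chosen after their values were seen or with their reason. Of 1142 genes on 56 lists, 1136 were found. The genes, lists and sizes were chosen with earlier results of these data known. The alternatives tried were a pseudocount of 0.1 or 5, a filter of 5 FPKM or none, TPM, centring on the median, scaled counts, trend removal, keeping overlapping genes, and ignoring overlaps with small RNA genes. Python 3.11.15, numpy 2.4.6, pandas 2.3.3, scipy 1.17.1, statsmodels 0.14.6 and matplotlib 3.10.9 were used.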

Additional observations from a re-analysis of the deposited data

Results flagged for a closer look

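In 3 protein-coding genes the lines moved past 1.5-fold in opposite ways, 1 library pair each, and the difference between the lines was not tested. ZEB1 had a log2 ratio of -0.89 in ES2 (4.77 FPKM in ES2 YY-15 and 9.697 FPKM in ES2 control) and 0.60 in SKOV3 (8.67 FPKM in SKOV3 YY-15 and 5.38 FPKM in SKOV3 control). RESF1, which takes part in retroelement silencing, had a log2 ratio of -0.61 in ES2 (1.95 FPKM in ES2 YY-15 and 3.51 FPKM in ES2 control) and 0.72 in SKOV3 (44.9 FPKM in SKOV3 YY-15 and 26.9 FPKM in SKOV3 control). CRISPLD2, a secreted protein gene, had a log2 ratio of 0.67 in ES2 (1.51 FPKM in ES2 YY-15 and 0.579 FPKM in ES2 control) and -0.71 in SKOV3 (0.338 FPKM in SKOV3 YY-15 and 1.18 FPKM in SKOV3 control). RESF1 and CRISPLD2 were named after their values were seen.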

How the results depend on the processing

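No paired analysis was possible because each group held 1 library. The counts depended on the scale and on the pseudocount, which stayed at 1 on the TPM scale and on scaled counts. As reported, 16 genes were at least 2-fold higher and 17 lower, 67 at least 1.5-fold higher and 163 lower, and among protein-coding genes 16 were at least 1.5-fold higher and 68 lower. In that order, a pseudocount of 0.1 gave 55, 100, 179, 450, 51 and 218. A pseudocount of 5 gave 5, 1, 12, 13, 2 and 11. An FPKM filter of 5 gave 7, 5, 15, 56, 5 and 45. The TPM scale gave 41, 83, 126, 453, 34 and 231. Scaled counts gave 16, 41, 110, 462, 66 and 295. With overlapping genes kept the counts were 43, 60, 124, 270, 34 and 92. With the trend removed the protein-coding counts were 9 and 34. Dropping the filter, centring on the median and ignoring overlaps with small RNA genes kept each count within 1.5 times. The median of all genes moved by -0.0445 on the TPM scale and by 0.0343 with an FPKM filter of 5, on the log2 scale, and by less in the other settings. All 32 named genes past 1.5-fold kept their direction with the trend removed, and 17 of them stayed past 1.5-fold, as did 12 with a pseudocount of 5. Of 51 lists, 44 kept the sign of their median on the TPM scale and 45 with the trend removed, and the 10 lists with medians of 0.15 or more in size kept it in every setting. Counting error is small at these depths, while the spread between cultures is unknown.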
